A study of Mus musculus with 7 samples.

Results

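The genes described are 8 markers of satellite glia, the flat glial cells that wrap the cell bodies of sensory neurons: Fabp7, Glul, Slc1a3, Gja1, Cdh19, Sparc, Sox10 and S100b. They were taken by symbol from the deposited table, where each symbol had 1 row, so 8 of its 54309 genes are members. RNA sequencing gave their transcript abundance in 7 samples of lumbar (L4-6) dorsal root ganglia of C57bl/6 mice labelled male and 6 to 8 weeks old, all taken 72 h after a sciatic nerve injury. Injury was given at ZT 20 in 4 samples and at ZT 8 in 3 samples, where Zeitgeber time (ZT) counts hours after the lights come on, and the ganglia were dissected at ZT 20 or ZT 8, so the hour of injury and the hour of dissection cannot be told apart. No uninjured group was analysed here, and both groups were dissociated with enzymes and passed over an albumin gradient that enriches neurons. The members are read in what stayed with the neurons through that step, and fewer cells of a type and less RNA per cell cannot be told apart. The labels do not say whether ganglia of several animals were pooled or whether the replicates are separate animals, so the p-values measure only the spread between these samples.

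Satellite glia take up glutamate and potassium released around the neuron, are joined to each other by gap junctions, and react to injury of the axon. Slc1a3 (GLAST) is a glutamate transporter and Glul is glutamine synthetase, which turns glutamate into glutamine. Fabp7 is a fatty acid-binding protein and Gja1 is connexin 43, a gap junction subunit. Cdh19 is a cadherin of the neural crest lineage, Sparc is a secreted matrix glycoprotein, Sox10 is the transcription factor of peripheral glia, and S100b is a calcium-binding protein. The list is not specific to 1 cell type: Sox10, Cdh19 and S100b are also made by Schwann cells, S100b by many sensory neurons, and Sparc by fibroblasts and endothelial cells.

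The 7 libraries were not alike. Depth is unknown, because the deposited values are TPM, abundances scaled for transcript length and to the same sum in each sample. Genes above 0 TPM numbered 24192 to 25238 at ZT20 and 22541, 18297 and 22973 in ZT8 replicates 1 to 3, so ZT8 replicate 2 stood apart. In ZT20 replicates 3 and 4 the Y-linked genes Ddx3y, Eif2s3y and Uty were listed at 0 and Xist was at 2.21 and 2.30 TPM, so these 2 libraries, labelled male, went against the label. In ZT20 replicate 2 Ddx3y (11.7 TPM) and Xist (1.08 TPM) were both present, and in the other 4 libraries Ddx3y was at 15.3 to 24.2 TPM with Xist at or near 0. Results without these libraries are given below. Library identifiers were numbers at ZT20 and letters at ZT8, so what this naming stands for cannot be told apart from the group.

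The promoters of the 3 members whose groups did not overlap, Fabp7, Slc1a3 and S100b, are shown because the study is about clock time and the core clock acts through short promoter motifs. The sequences are the 250 bases before the RefSeq gene start (build GRCm38.p6, matched by symbol, 6 of 8 members matched), written 5′ to 3′ on the gene's strand, and the capitals mark the half-site AGGTCA or its reverse complement TGACCT, to which nuclear receptors of the ROR and REV-ERB kind bind.
Fabp7, chr10:57784673-57784922, plus strand: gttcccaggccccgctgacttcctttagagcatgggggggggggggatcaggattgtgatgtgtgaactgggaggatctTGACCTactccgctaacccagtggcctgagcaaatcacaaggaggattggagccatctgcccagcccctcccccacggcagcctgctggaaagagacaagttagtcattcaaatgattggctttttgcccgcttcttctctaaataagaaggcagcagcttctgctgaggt
Slc1a3, chr15:8710808-8711057, minus strand: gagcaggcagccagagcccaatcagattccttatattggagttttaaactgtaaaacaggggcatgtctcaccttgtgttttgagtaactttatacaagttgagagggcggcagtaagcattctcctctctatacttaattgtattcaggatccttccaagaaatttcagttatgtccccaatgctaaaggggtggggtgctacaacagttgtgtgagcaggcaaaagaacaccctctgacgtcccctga
S100b, chr10:76253586-76253835, plus strand: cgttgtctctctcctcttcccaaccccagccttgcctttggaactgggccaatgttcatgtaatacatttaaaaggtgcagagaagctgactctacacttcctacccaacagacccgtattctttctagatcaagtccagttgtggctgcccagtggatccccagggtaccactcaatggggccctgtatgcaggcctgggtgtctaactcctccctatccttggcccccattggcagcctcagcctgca
On either strand the half-site lay in 2 of the 6 member promoters, Fabp7, where it began 171 bases before the start, and Glul, where it began 57 bases before it. The same letters were in 14.0% of 32851 RefSeq promoter windows of this length. The E-box CACGTG was in 0 of the 6 and in 6.02% of all windows, the D-box TTATGTAA in 0 and 0.819%, and the SOX motif ACAAAG in 0 and 16.5%. These matches describe letters in a window and not sites in use.

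Fabp7 was lower at ZT20 and passed the test across all genes, and the other 7 members did not pass. The differences of Fabp7, Glul, Slc1a3, Sparc and Sox10 were negative, and those of Gja1, Cdh19 and S100b were positive. Differences are given as ZT20 minus ZT8 on the scale log2(TPM + 1), with limma's moderated test and Benjamini-Hochberg adjustment over the 14800 genes whose mean reached 1 TPM. The threshold was an adjusted p of 0.05. All 8 members entered the test. In either direction 1 of 8 members was called, beside 16.4% of all tested genes. Lower at ZT20 was called for 1 of 8 members and for 3.61% of all tested genes, and higher at ZT20 for 0 of 8 members and for 12.8% of all tested genes. At an unadjusted p under 0.05 there were 2 of 8 members, Fabp7 and Slc1a3, beside 34.6% of all tested genes. The median difference was −0.35 over the members and 0.23 over all tested genes.

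**Figure D1:**
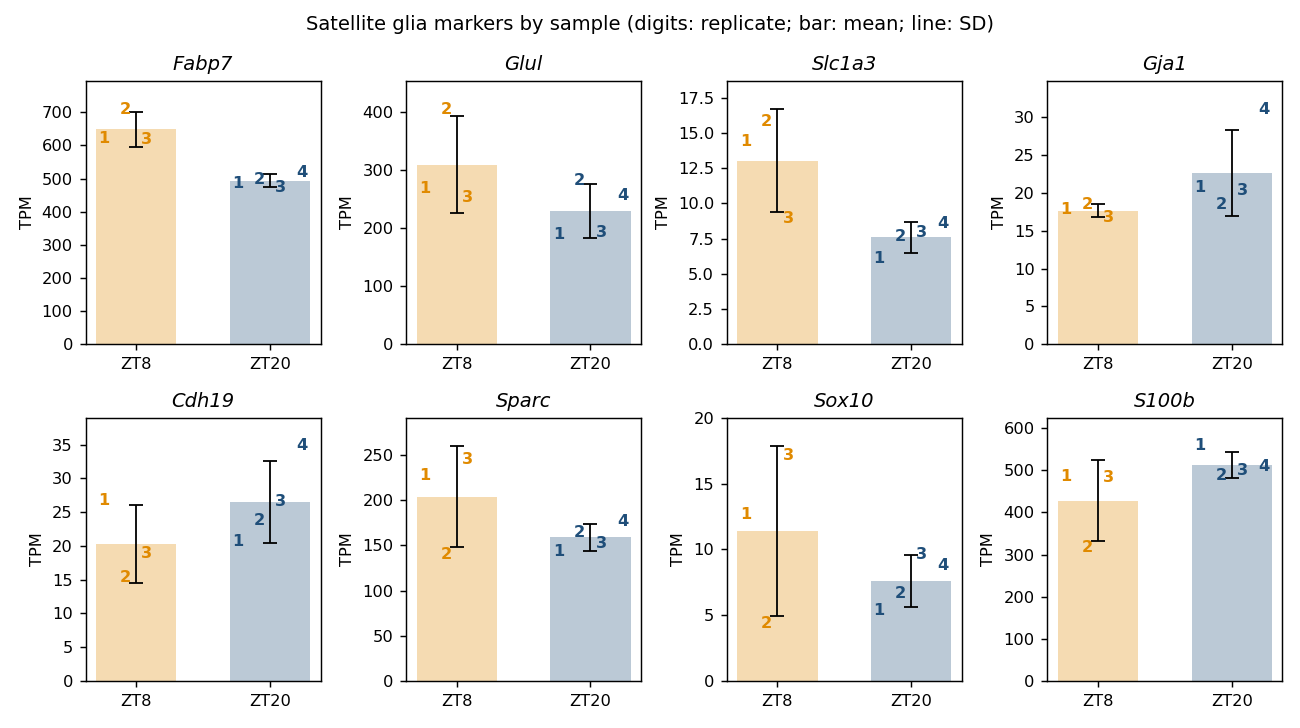
Abundance of each of the 8 markers in TPM (vertical axis, from 0) at ZT8 (orange, 3 samples) and ZT20 (blue, 4 samples). Bars are means, lines are SDs and digits are replicate numbers. Fabp7 and Slc1a3 are higher in every ZT8 sample than in any ZT20 sample, S100b is lower in every ZT8 sample, and ZT8 replicate 2 lies apart from the other ZT8 samples in Glul, Sparc, Sox10 and S100b.

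Fabp7 (ENSMUSG00000019874), a classical satellite glia marker, had 486, 497, 472 and 518 TPM in the 4 ZT20 replicates. In ZT8 replicates 1 to 3 it was at 621, 709 and 617 TPM. Every ZT8 sample lay above every ZT20 sample, and the ZT20 samples spanned less than the ZT8 samples. The ZT20 mean of 493 ± 19.3 TPM (SD, n = 4) was 0.760 of the ZT8 mean of 649 ± 52.3 TPM (SD, n = 3). The log2 difference was −0.39 with a standard error of 0.10 and a 95% interval of −0.62 to −0.16 (limma adjusted p = 0.0327). The difference was negative in all 20 alternative fits, from −0.63 to −0.23, but the call was lost in 13 of them. Without ZT20 replicates 3 and 4 it was −0.40 with an adjusted p of 0.266 by limma. That fit of 2 against 3 samples called 0 of 14687 genes, of which 2378 had an unadjusted p under 0.05, among them 2 members.

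The glutamate pair, Slc1a3 and Glul, had negative differences and neither passed. Slc1a3 (ENSMUSG00000005360), the transporter, was at 6.09, 7.66, 7.97 and 8.61 TPM at ZT20. At ZT8 it was at 14.4, 15.8 and 8.90 TPM. The ranges did not overlap, though ZT8 replicate 3 lay close to the highest ZT20 sample. The ZT20 mean was 7.58 ± 1.07 TPM (SD, n = 4), beside 13.04 ± 3.66 TPM (SD, n = 3) for ZT8, and the log2 difference was −0.68 with a standard error of 0.23 (interval −1.21 to −0.15, limma adjusted p = 0.0764). It passed under median-ratio scaling (−0.89, limma adjusted p = 0.0384), quantile normalization (−0.995, limma adjusted p = 0.0280) and the length and GC correction (−1.07, limma adjusted p = 0.0281). Without ZT8 replicate 3, the ZT8 sample nearest to ZT20, it was −0.92 and passed as well (limma adjusted p = 0.0361). In 16 of 20 alternatives Slc1a3 did not pass. With the neuronal marker score as covariate its difference was −0.22 (limma adjusted p = 0.674). That score is the mean log2 level of 13 neuron markers in the same samples, 11 of them with positive differences. It is therefore not independent of the group, and values fitted with it cannot be read as corrected for neuron content alone.

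Glul (ENSMUSG00000026473), the enzyme, was at 188, 281, 191 and 256 TPM at ZT20. At ZT8 it was at 268, 404 and 253 TPM. The highest value was in ZT8 replicate 2, and the other ZT8 samples lay within the ZT20 range. The log2 difference was −0.42 with a standard error of 0.21 (interval −0.89 to 0.06, limma adjusted p = 0.193). Without ZT8 replicate 2 it was −0.21. With the neuronal marker score as covariate its sign turned to 0.20. In GENCODE M21 the span of Glul overlaps the microRNA gene Mir8114 on its own strand and Teddm2 on the other. The span of Slc1a3 overlaps the predicted gene Gm37310 on its own strand. Whether these partners share transcript sequence with them was not tested.

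Of 14 other genes of glutamate handling, 11 were tested. Higher at ZT20 was called for 2 and lower for 0, beside 12.8% and 3.61% of all tested genes. Slc38a2, an amino acid transporter that carries glutamine, averaged 66.8 ± 12.3 TPM (± SD) over the 4 ZT20 samples and 28.9 ± 4.90 TPM over the 3 ZT8 samples, with a log2 difference of 1.18 (limma adjusted p = 0.00759). It was 0.63 with the length and GC correction (limma adjusted p = 0.0376), and did not pass with the neuronal marker score (0.80, limma adjusted p = 0.0915), without ZT20 replicates 3 and 4 (0.96, limma adjusted p = 0.149) or with the correction and the replicate block together, a fit without ZT20 replicate 4 (0.57, limma adjusted p = 0.0900). The other glial glutamate transporter, Slc1a2 (GLT-1), was at 0 to 1.49 TPM and was not tested.

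Gja1 (ENSMUSG00000050953) was at 20.7, 18.4, 20.3 and 31.0 TPM at ZT20. In the ZT8 samples it was at 17.7, 18.5 and 16.7 TPM. ZT20 replicate 4 was the highest, and ZT20 replicate 2 lay within the ZT8 range. The log2 difference of 0.31 had a standard error of 0.20 (interval −0.13 to 0.76, limma adjusted p = 0.283), and it was 0.09 under median-ratio scaling. Gja1 was the most abundant of the connexins listed: the next, Gjc3, was at 4.42 to 7.88 TPM. Of 13 other connexins and pannexins 5 were tested, limma called 0, beside 16.4% of all tested genes, and 0 had an unadjusted p under 0.05, beside 34.6%. Panx1, a channel protein of neurons and glia, was at 64.1 to 147 TPM at ZT20 and 152 to 196 TPM at ZT8, so the ranges did not overlap, but it did not pass (limma adjusted p = 0.145). Panx2, another channel of this family, had ranges that did not overlap the other way, at 8.67 to 11.7 TPM at ZT20 and 0.727 to 8.08 TPM at ZT8 (limma adjusted p = 0.164). With the length and GC correction 1 of the 5 was called, lower at ZT20, beside 5.26% of all genes in that fit.

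Cdh19 (ENSMUSG00000047216) was at 20.7, 23.8, 26.5 and 34.8 TPM at ZT20. At ZT8 it was at 26.7, 15.3 and 18.9 TPM. ZT8 replicate 1 lay among the ZT20 samples and the other ZT8 samples lay below them all. The log2 difference was 0.38 with a standard error of 0.23 (interval −0.16 to 0.91, limma adjusted p = 0.283). Leaving out 1 sample moved it from 0.20 (without ZT8 replicate 2) and 0.24 (without ZT20 replicate 4) to 0.58 (without ZT8 replicate 1). It was 0.15 under median-ratio scaling and 0.01 with the neuronal marker score. In GENCODE M21 the gene overlaps the predicted genes Gm36944 and Gm38255 on its own strand.

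Sparc (ENSMUSG00000018593) was at 143, 165, 152 and 177 TPM at ZT20. The ZT8 samples were at 227, 140.1 and 245 TPM. ZT8 replicates 1 and 3 lay above all ZT20 samples and ZT8 replicate 2 below them. The log2 difference over all samples was −0.32 with a standard error of 0.19 (interval −0.76 to 0.12, limma adjusted p = 0.272). Without ZT8 replicate 2 it was −0.57 and passed (limma adjusted p = 0.0164), and without ZT8 replicate 3 it was −0.17 (limma adjusted p = 0.568). With the neuronal marker score as covariate it was −0.90 (limma adjusted p = 0.0392).

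Sox10 (ENSMUSG00000033006) had the same order of samples as Sparc at ZT8. Its values were 5.35, 6.63, 9.64 and 8.76 TPM at ZT20 and 12.7, 4.36 and 17.1 TPM at ZT8. Replicate 2 of ZT8 was the lowest of all 7 samples and replicates 1 and 3 the highest. The log2 difference of −0.38 had a standard error of 0.40 (interval −1.31 to 0.54, limma adjusted p = 0.526). Without ZT8 replicate 2 it was −0.90 and passed (limma adjusted p = 0.0410), and without ZT8 replicate 3 it was −0.02 (limma adjusted p = 0.975). With the neuronal marker score as covariate it was −1.70 (limma adjusted p = 0.0358).

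S100b (ENSMUSG00000033208) was at 558, 489, 499 and 509 TPM at ZT20. In ZT8 replicates 1 to 3 it was at 485, 317 and 482 TPM. No ZT8 value reached those of ZT20, but ZT8 replicates 1 and 3 lay just below the lowest of them. The log2 difference was 0.29 with a standard error of 0.16 (interval −0.08 to 0.65, limma adjusted p = 0.236). Without ZT8 replicate 2 it was 0.09, and with the neuronal marker score as covariate it was −0.21. The gene Dip2a overlaps S100b on the other strand in GENCODE M21.

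In 3 of 8 members the groups did not overlap, beside 33.2% of all tested genes. They did not overlap in 2 of 8 members lower at ZT20, beside 8.72% of all tested genes, and in 1 of 8 higher at ZT20, beside 24.5% of all tested genes. The order of the levels, which TPM allows because it is per transcript length, was led by different genes in the groups. At ZT20 it ran S100b, Fabp7, Glul, Sparc, Cdh19, Gja1, Sox10, Slc1a3, and the neighbours S100b and Fabp7, Cdh19 and Gja1, and Sox10 and Slc1a3 had overlapping ranges. At ZT8 Fabp7 came first, with a range that did not overlap that of S100b, and Slc1a3 came before Sox10, with overlapping ranges. Fabp7 and S100b together made up 63.2% to 73.1% of the members' summed TPM. That sum was 1379 to 1543 TPM at ZT20 and 1624 to 1672 TPM at ZT8.

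**Figure D2:**
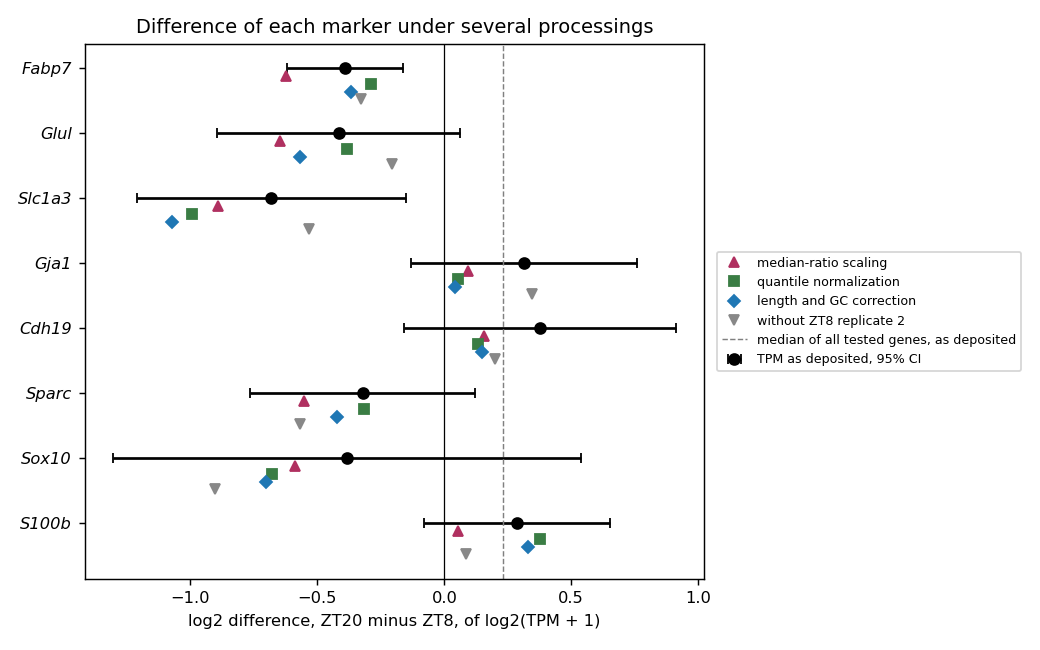
Log2 difference (ZT20 minus ZT8) of each marker. Black points and lines are estimates and 95% intervals from TPM as deposited, coloured symbols are estimates under other processings, and the dashed line is the median of all tested genes, 0.23. Slc1a3 moves from −0.68 to −1.07 with the length and GC correction, and Sparc and Sox10 move to −0.57 and −0.90 without ZT8 replicate 2, while without ZT8 replicate 3, which is not drawn, they are −0.17 and −0.02.

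Differences in this table follow transcript length, so each member was set beside genes of like length, in 10 groups of equal size by the longest GENCODE M21 transcript. Fabp7, with 880 nt, is in the shortest group, whose median log2 difference was −0.03. Slc1a3, with 4435 nt, is in a group whose median was 0.47, so its −0.68 lay 1.15 below that median. Gja1 (3889 nt) and Cdh19 (3914 nt) are in a group with a median of 0.36, and they lay within 0.05 of it. S100b (1484 nt) is in a group with a median of −0.13 and lay 0.42 above it. Sparc (2300 nt) differed from the median of its group by −0.40, and Glul (2792 nt) and Sox10 (2780 nt), which share a group, by −0.59 and −0.56.

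Ratios between 2 members within a sample do not depend on scaling between samples. All 28 pairs of members were compared by exact permutation of the group labels (two-sided, 35 arrangements), whose smallest p is 0.0286. The groups did not overlap in 7 pairs, each with exact p = 0.0286 and an adjusted p of 0.114 over the 28 pairs. As 0.0286 is the smallest possible p, 7 such pairs could not pass adjustment, and that 0 passed says nothing about the ratios. The pairs share genes and are not separate results. Ratios of other genes were not computed for comparison. Among single genes the groups did not overlap in 33.2% of all tested genes. The ratio of Fabp7 to S100b, genes of short transcripts, was 0.871, 1.02, 0.947 and 1.02 at ZT20. At ZT8 it was 1.28, 2.24 and 1.28. Every ZT8 sample had more Fabp7 than S100b, and ZT20 samples had about as much of each. The ratio of Slc1a3 to Gja1, which have transcripts of like length, was 0.294, 0.416, 0.392 and 0.277 at ZT20 and 0.812, 0.857 and 0.532 at ZT8. Slc1a3 to Cdh19, Slc1a3 to S100b, Fabp7 to Gja1 and Sparc to S100b were likewise lower in every ZT20 sample, and Cdh19 to Sparc was higher. Sparc to S100b was at 0.256 to 0.348 at ZT20 and 0.442 to 0.508 at ZT8, and for this pair ZT8 replicate 2 lay between the other ZT8 samples and the ZT20 samples.

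**Figure D3:**
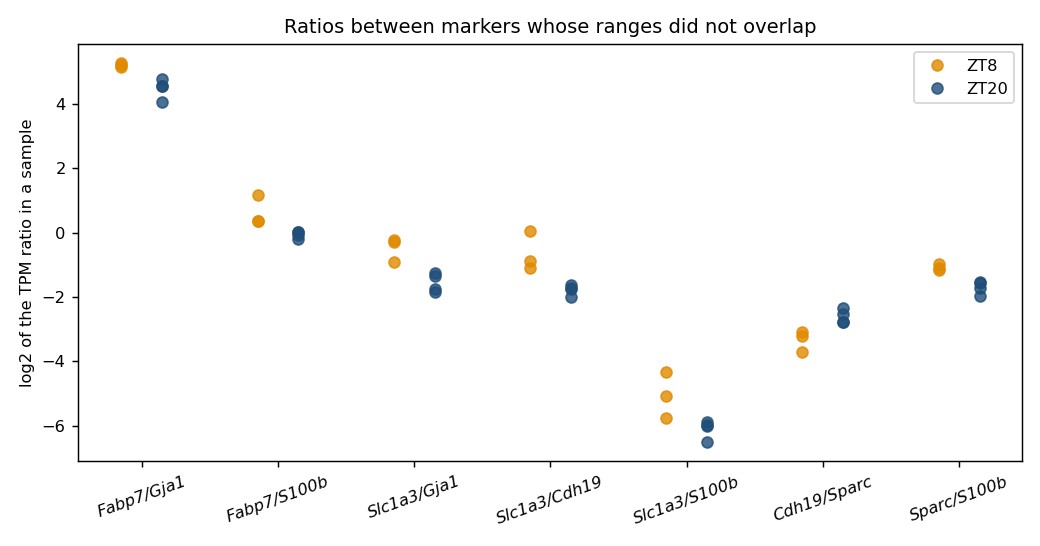
Log2 of the ratio of 2 markers within each sample, for the 7 of 28 pairs whose groups did not overlap. The share of such pairs among other genes was not computed. Orange points are the 3 ZT8 samples and blue points the 4 ZT20 samples. Of the 7 pairs, 6 are lower at ZT20 and Cdh19/Sparc is higher.

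Other genes known from satellite glia formed a list of 16, chosen as the members were with earlier results of these data known, and all 16 were tested. Lower at ZT20 was called for 2, among them Apoe, and higher for 1, Fasn, beside 3.61% and 12.8% of all tested genes, and the median difference was −0.02. With the length and GC correction 5 of the 16 were called lower and 0 higher, beside 5.26% and 3.58% of all genes in that fit, with a median of −0.39 (all genes −0.0083). Apoe, the lipid carrier that satellite glia and macrophages secrete, was the second most abundant gene of the table. It was at 6549, 6379, 6261 and 7615 TPM at ZT20. At ZT8 it was at 13032, 10623 and 13557 TPM. All ZT8 samples lay above all ZT20 samples. The log2 difference was −0.88 (standard error 0.13, limma adjusted p = 0.00657). In 3 of 20 alternatives it did not pass: without a filter (limma adjusted p = 0.0702), under quantile normalization (−0.48, limma adjusted p = 0.108) and without ZT20 replicates 3 and 4 (−0.93, limma adjusted p = 0.121).

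Fasn, fatty acid synthase, went the other way. It averaged 106 ± 6.42 TPM (± SD) over the 4 ZT20 samples and 57.1 ± 11.7 TPM over the 3 ZT8 samples, with a log2 difference of 0.90 (limma adjusted p = 0.00887). After the length and GC correction that difference was 0.07 (limma adjusted p = 0.833), and Fasn has a long transcript. Kcnj10, the potassium channel that defines these glia in many studies, was at 3.45 to 7.44 TPM over all samples and did not pass (limma adjusted p = 0.596).

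**Figure D4:**
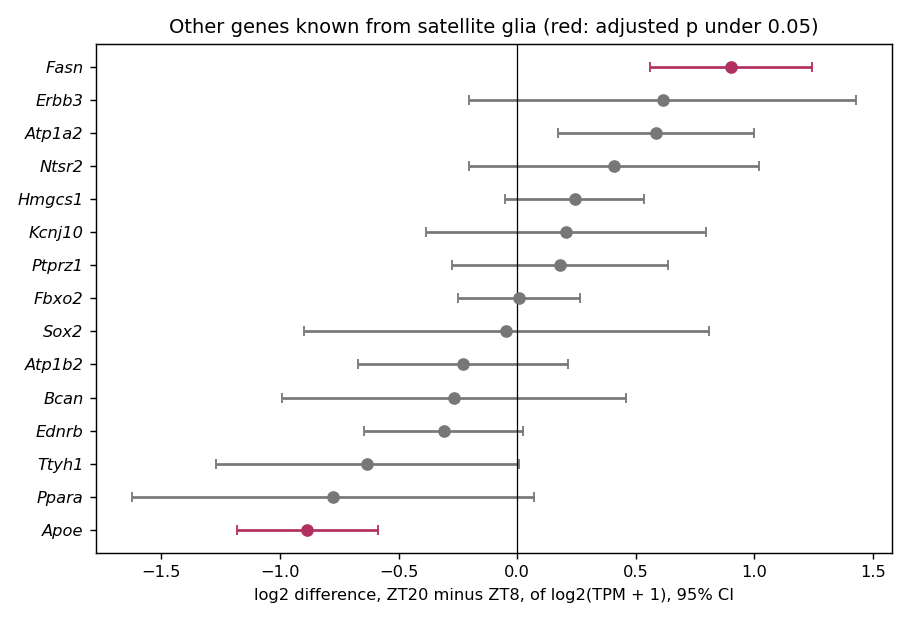
Log2 difference (ZT20 minus ZT8) with 95% interval of other genes known from satellite glia that are reported here, from TPM as deposited. Red marks genes that passed, Fasn above 0 and Apoe below it, and the intervals of most others include 0.

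Among 12 genes raised in glia after nerve injury, all tested, 4 were called higher at ZT20 and 0 lower. They were Lcn2 (log2 difference 2.43), Mcam (1.05), Cd44 (0.66) and Stat3 (0.60), with limma adjusted p-values of 0.0261, 0.00363, 0.0106 and 0.0376. Lcn2 encodes an iron-binding secreted protein, Mcam and Cd44 are adhesion receptors and Stat3 is a transcription factor of cytokine signalling, and all are also made by neurons or immune cells. Beside these 4 of 12, 12.8% of all tested genes were called higher. With the length and GC correction 2 of the 12 were called higher, Lcn2 and Mcam, beside 3.58% of all genes in that fit, while Cd44 was at 0.16 (limma adjusted p = 0.345) and Stat3 at −0.01 (limma adjusted p = 0.970). Over the 20 alternatives the call was lost in 1 for Mcam, 4 for Cd44 and 6 for Lcn2, and for Stat3 it was lost in 11 with the sign turned in 2 more. Gfap, the filament protein of reactive glia, was at 1.25, 2.38, 2.26 and 3.02 TPM at ZT20 and 10.4, 0.310 and 5.59 TPM at ZT8 and did not pass (limma adjusted p = 0.578). Its ZT8 values surrounded those of ZT20, with replicate 2 again the lowest, as for Sox10.

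Of 22 relatives of the members 20 were tested, 3 were called higher and 1 lower, beside 12.8% and 3.61% of all tested genes. Of the S100 proteins, S100a11 was higher at ZT20 by 1.16 (limma adjusted p = 0.00915) and S100a1 lower, by a difference of −1.02 (limma adjusted p = 0.0285). Spock2, of the same family of matrix proteins as Sparc, was higher by 1.37 (limma adjusted p = 0.0242), and Cdh2, N-cadherin, by 0.95 (limma adjusted p = 0.0351). Over the 20 alternatives the call was lost in 2 for S100a11, 7 for Spock2, 8 for S100a1 and 13 for Cdh2. With the neuronal marker score the differences of Spock2, S100a1 and Cdh2 were 0.30, −0.27 and 0.28, and with the length and GC correction Spock2 was at 0.80 and Cdh2 at 0.48, neither passing (limma adjusted p = 0.0576 and 0.153). Of the fatty acid-binding relatives, Fabp5 was at 105 to 125 TPM at ZT20 and 111 to 143 TPM at ZT8, and Fabp3 at 180.1 to 198 TPM and 163 to 223 TPM. Neither passed, their intervals (−0.37 to 0.22 and −0.31 to 0.27) overlapped that of Fabp7, and a difference from Fabp7 was not tested.

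Markers of other cells are given for comparison, since their part in the results was not tested. The 13 sensory neuron markers summed to 20215 to 24989 TPM at ZT20 and to 21770, 15488 and 22783 TPM in ZT8 replicates 1 to 3, the lowest in the replicate where Sox10 and S100b were lowest. Of these 13, 3 passed higher at ZT20 (Nefh, Elavl4 and Syt1) and 0 lower, beside 12.8% and 3.61% of all tested genes. Syt1 was at 0.31 with the length and GC correction and did not pass (limma adjusted p = 0.112). The 12 myelinating Schwann cell markers summed to 1179 to 1347 TPM at ZT20 and 976 to 1383 TPM at ZT8, and of the 11 tested 1 passed, Drp2, higher at ZT20 (limma adjusted p = 0.0371), beside 12.8% of all tested genes. Drp2 lost its call in 15 of 20 alternatives and was at 0.08 with the length and GC correction (limma adjusted p = 0.810), under which 1 Schwann cell marker was called, lower at ZT20, beside 5.26% of all genes. The leading Schwann cell markers were Pmp22, Mbp and Mal, and Cldn19 was the only one too low to test. Pmp22 held most of the sum and was lowest in ZT8 replicate 2 (732 TPM), while Mal was highest there (51.3 TPM).

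Macrophages also make Apoe, and the part of their markers in its difference was not tested. The 12 macrophage markers summed to 379 to 747 TPM at ZT20 and to 916, 612 and 390 TPM at ZT8, so the groups overlapped, and 2 passed, C1qa lower (−1.17, limma adjusted p = 0.0253) and Mrc1 higher (1.40, limma adjusted p = 0.0259), beside 3.61% of all tested genes lower and 12.8% higher. The call was lost in 7 of 20 alternatives for C1qa and in 11 of 19 for Mrc1, which was at 0.92 with the length and GC correction (limma adjusted p = 0.104). The other 10 did not pass, and the median over the list was −0.14. Sparc is also made by fibroblasts and endothelial cells. The 8 fibroblast markers summed to 90.9 to 133 TPM at ZT20 and 95.4 to 219 TPM at ZT8, highest in ZT8 replicate 2, where Sparc was lowest. Of the 8 endothelial markers Egfl7 held most of the sum. Its difference was −0.50 (limma adjusted p = 0.0482), a call lost in 16 of 20 alternatives, and −0.10 with the neuronal marker score (limma adjusted p = 0.668). The defining markers Pecam1, Cdh5 and Tek were at 0 to 1.98 TPM. The 7 pericyte markers, most of them near 0 except Rgs5, summed to 80.4 to 109 TPM at ZT20 and 48.6 to 84.0 TPM at ZT8.

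**Figure D5:**
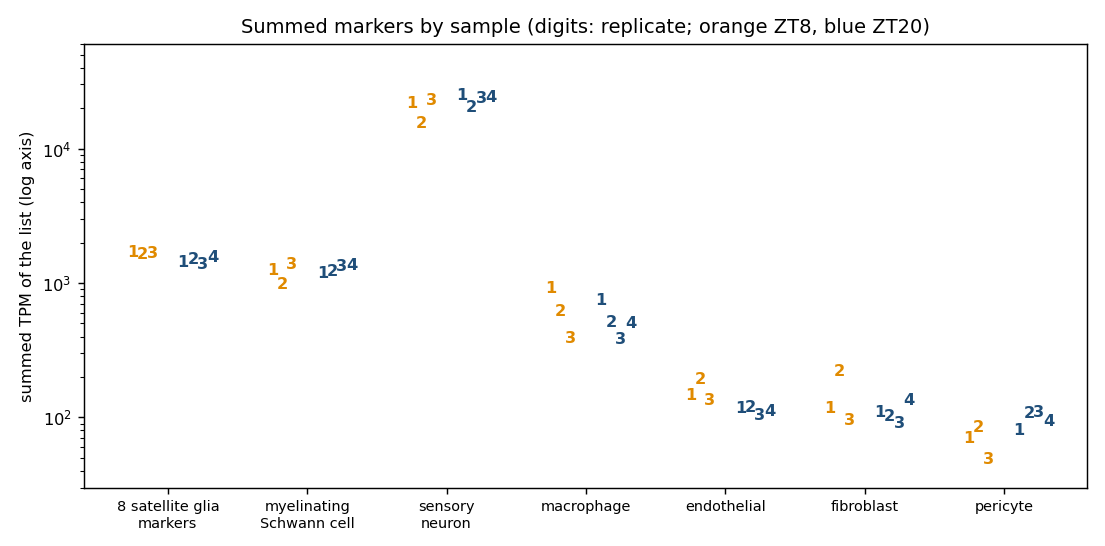
Summed TPM (log axis) of the 8 satellite glia markers and of marker lists of 6 other cell types in each sample. Digits are replicate numbers, orange for ZT8 and blue for ZT20. The satellite glia sum is higher in the 3 ZT8 samples. ZT8 replicate 2 has the lowest neuron and Schwann cell sums and the highest fibroblast sum, and Pmp22 holds most of the Schwann cell sum.

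The genes whose profile over the 7 samples lay nearest to the mean standardised profile of the 8 members were Rhbdf1, Ednrb, Hnrnpk, Atp1b2 and Tmem254a, at root mean square distances of 0.316, 0.350, 0.357, 0.361 and 0.384 SD units, out of 8100 other genes averaging 10 TPM or more. Of the members themselves, Sparc (0.588) and Sox10 (0.733) lay nearest to that profile and S100b (1.29) farthest. Ednrb, the endothelin B receptor, was at 87.6, 90.4, 92.8 and 123 TPM at ZT20 and 132, 111 and 121 TPM at ZT8. It and Atp1b2, a sodium pump subunit, are also on the list of other satellite glia genes. The 5 did not pass the test between groups.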

How the data were processed

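Total RNA of 7 samples was sequenced from libraries made with a low-input kit, per the labels' protocols. The authors deposited 1 table of TPM per gene and sample, scaled to the same sum in every column. FastQC 0.11.9, Trim Galore 0.6.6, Salmon 1.6.0, DESeq2 1.34.0 and build GRCm39 are listed in the submitters' processing notes, and the annotation release is not given in the sources used here. Depth is unknown, so counting error could not be given. All 7 columns carry sample titles and were mapped by these.

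Values were analysed as log2(TPM + 1), which understates changes of low genes. Genes averaging 1 TPM or more were fitted with limma 3.58.1 (intensity trend, R 4.3.3, no covariate), adjusted by Benjamini-Hochberg. The fit was tested on simulated data. Transcript length and GC content came from GENCODE M21 (99.6% of tested genes matched) and promoters from RefSeq GRCm38.p6. Figures were drawn with matplotlib 3.10.9.

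The 8 members, the other gene lists and the alternatives were chosen with earlier results of these data known. Named by rule were all members, up to 4 called genes of each other list, the 3 most abundant markers of other cell types, and the 5 nearest profiles. Other genes, named for their level or role, were chosen after their values were seen. Alternatives changed the scaling (median-ratio, quantile, or without mitochondrially encoded genes), the pseudocount (0.1) and the filter (none, or 5 TPM). Others were the replicate block, no intensity trend, array weights, a neuronal marker score as covariate, a loess correction (span 0.3) for length and GC content, and leaving out samples. The block joined with that correction was added after the data were seen. List counts cover every gene of a list, and some called genes are not reported here.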

Additional observations from a re-analysis of the deposited data

Results flagged for a closer look

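Within the ZT20 group 40 results were checked for a sample whose gap to its nearest neighbour took more than the 95% critical share of the group's range, and 2 had one. Chance alone gives about 1 in 20. The summed TPM of the 12 genes raised in glia after injury was 1788 in ZT20 replicate 2 and 2258 to 2329 in the other ZT20 samples. Most of that gap came from a single gene of the list, Ngfr, the most abundant of them. Its ZT20 values for replicates 1 to 4 were 1341, 908, 1315 and 1330 TPM. The low sum is therefore mainly a low Ngfr value and does not describe the list as a whole. For Lcn2, ZT20 replicate 1 gave 86.1 TPM, and the rest of its group 14.0 to 17.4 TPM. Without ZT20 replicate 1 the log2 difference of Lcn2 was 1.83 and passed (limma adjusted p = 0.0138). The call was lost in 6 of 20 alternatives, among them quantile normalization (0.0525), the neuronal marker score (0.206), and leaving out ZT20 replicate 4 (0.0591) or ZT8 replicate 3 (0.0713), each a limma adjusted p. None of the 8 satellite glia markers had such a sample. The 3 samples of ZT8 were not checked in this way.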

How the results depend on the processing

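The number of genes past the threshold over the whole table was 2433. It was 1178 without a filter, 3899 with array weights, 1107 with the neuronal marker score, 1304 (528 higher, 776 lower) with the length and GC correction and 0 without ZT20 replicates 3 and 4, where limma gave 2378 at an unadjusted p under 0.05. Leaving out 1 replicate gave 723 to 3047. Median-ratio scaling moved the median of all genes from 0.23 to 0.03, with 49.3% of calls higher in place of 78.1%, quantile normalization moved it to 0.0046 with 55.7% higher, and with the length and GC correction 40.5% were higher.

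Of the 8 markers 1 passed. The number was 2 under median-ratio scaling (Fabp7 and Slc1a3), array weights (Fabp7 and Sparc) and the neuronal marker score (Sparc and Sox10). All of these were lower at ZT20, beside 7.84%, 6.2% and 1.82% of all genes called lower in these fits. Higher at ZT20 were 0 markers, beside 7.62%, 20.1% and 5.66% of all genes. The number was 0 without a filter, without the intensity trend and without ZT20 replicates 3 and 4. Each of those fits had 2 markers at an unadjusted p under 0.05 by limma, beside 20.2%, 33.8% and 16.2% of all genes. Leaving out 1 replicate gave 0 to 3. The share of all genes called was smallest without ZT20 replicate 3 (4.2% higher, 0.698% lower). It was largest without ZT8 replicate 2 (16% higher, 4.53% lower). Fabp7 lost its call without each ZT20 replicate (limma adjusted p from 0.0610 to 0.1105) and without ZT8 replicate 1 (0.0542). With the length and GC correction, as under quantile normalization, 1 marker passed, Slc1a3 in place of Fabp7. Signs turned for Glul (0.20) and S100b (−0.21) with the neuronal marker score, which is not independent of the group. The Stat3 sign turned with the length and GC correction (−0.0092). The causes were not tested.

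The correlation of deviations was −0.014, 0.15 and 0.083 for replicate numbers 1 to 3, and 1 of 3 ZT20 samples correlated best with its own number. So few samples cannot decide whether equal replicate numbers pair samples of ZT20 and ZT8. The fits with the block leave out ZT20 replicate 4, which shares its number with no ZT8 sample. Without that sample 855 genes and 0 markers passed with no block, and with the replicate block 1236 genes and 0 markers passed. With the replicate block and the length and GC correction together, again without ZT20 replicate 4, 496 genes and 0 markers passed, and the signs of Gja1 (−0.092) and Stat3 (−0.0509) turned. Leaving out ZT20 replicate 4 alone gave Gja1 0.16. The counts of the other lists stayed within 1.5 times in 138 of 220 list and setting combinations.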
